A study of Mus musculus with 22 samples.

Results

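Macrophages and monocytes were followed through 34 marker genes, a list of symbols found in the count tables by their Ensembl identifiers. All 34 were present among the 78298 genes counted. They fall into 7 roles: 3 monocyte genes, 9 genes of macrophages in general, 10 receptors and other genes of resident or scavenging macrophages, the 3 chains of complement C1q, 2 Fc receptors, 4 lipid-associated genes and 3 cathepsins. Panc02 is a mouse pancreatic cancer cell line. It was grown as allograft tumours in mice, 4 in female hosts (allografts 1 to 4) and 4 in male hosts (allografts 5 to 8), and was also cultured alone (2 libraries). The other 12 libraries came from natural killer (NK) cells of the spleen, killer lymphocytes of innate immunity. These were fresh, cultured for 24 h with interleukin-2, or cultured for 24 h with interleukin-2 and Panc02, with 2 libraries per donor sex and condition. The labels give no strain, age or genotype for the mice, and they do not say whether each library came from its own animal, and p-values therefore describe only how these libraries spread, which may in part be technical. The series asks about differences between female and male mice in NK cell defence against this cancer, and the allografts are its tumours in a living host.

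Monocytes leave the blood through the chemokine receptor Ccr2 and can become macrophages in a tissue, where the receptor Csf1r takes up the growth factors Csf1 and Il34 that keep them alive. Macrophages engulf dead cells and debris, digest them with lysozyme and cathepsins, secrete C1q, and handle lipids through Apoe and Trem2. In tumours they are often among the most numerous host cells. Tumour cells themselves can also make some genes that are read as macrophage markers, Spp1 being the best-known case.

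Levels are CPM, the counts of a gene scaled by the library's summed gene counts, and comparisons between genes use RPKM, which also divides by gene length. Total counts were 26140269 to 42078638 in allografts, 42123781 and 46842646 in cultured Panc02 and 13025549 to 46170885 in the NK libraries without Panc02. The labelled cell types were checked against marker lists. A list of 7 NK genes summed to 6921 to 7955 CPM in fresh NK cells, and a list of 6 epithelial and Panc02 genes to 3062 and 3101 CPM in cultured Panc02 and to 682 to 1685 CPM in allografts, 22.1% to 54.7% of the cultured level. The allografts also held host tissue in unequal amounts: 8 skeletal muscle genes summed to 726 CPM in allograft 6 and to 21704, 37498 and 10459 CPM in allografts 2, 4 and 7, with 1615 to 4314 CPM in the other 4. Values that rest on these 3 muscle-rich libraries are also given without them where that changes a call.

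The 34 genes together took 20714, 14641, 12160.0 and 14233 CPM in allografts 1 to 4 and 13419, 14624, 13742 and 11276 CPM in allografts 5 to 8, that is 1.13% to 2.07% of all counts. In cultured Panc02 they took 5312 and 5224 CPM, nearly all from the 12 genes that the line makes itself. The other 22 genes summed to 4340 to 8811 CPM in allografts, against 0.47 and 0.641 CPM in cultured Panc02. Every allograft lay far above both cultures. Per length, the most abundant of the 34 in allografts were Apoe (median 1635 RPKM), Lyz2 (1556), Spp1 (1240), C1qa (740), C1qb (669.6) and C1qc (327). At the bottom stood Cd163 (1.06 RPKM), Marco (0.447) and Timd4 (0.43). Allograft 1 held the highest level for 14 of the 34 genes, allograft 3 the lowest for 13 and allograft 8 the lowest for 10. In bulk tissue, fewer cells of a type and less RNA per cell cannot be told apart.

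**Figure D1:**
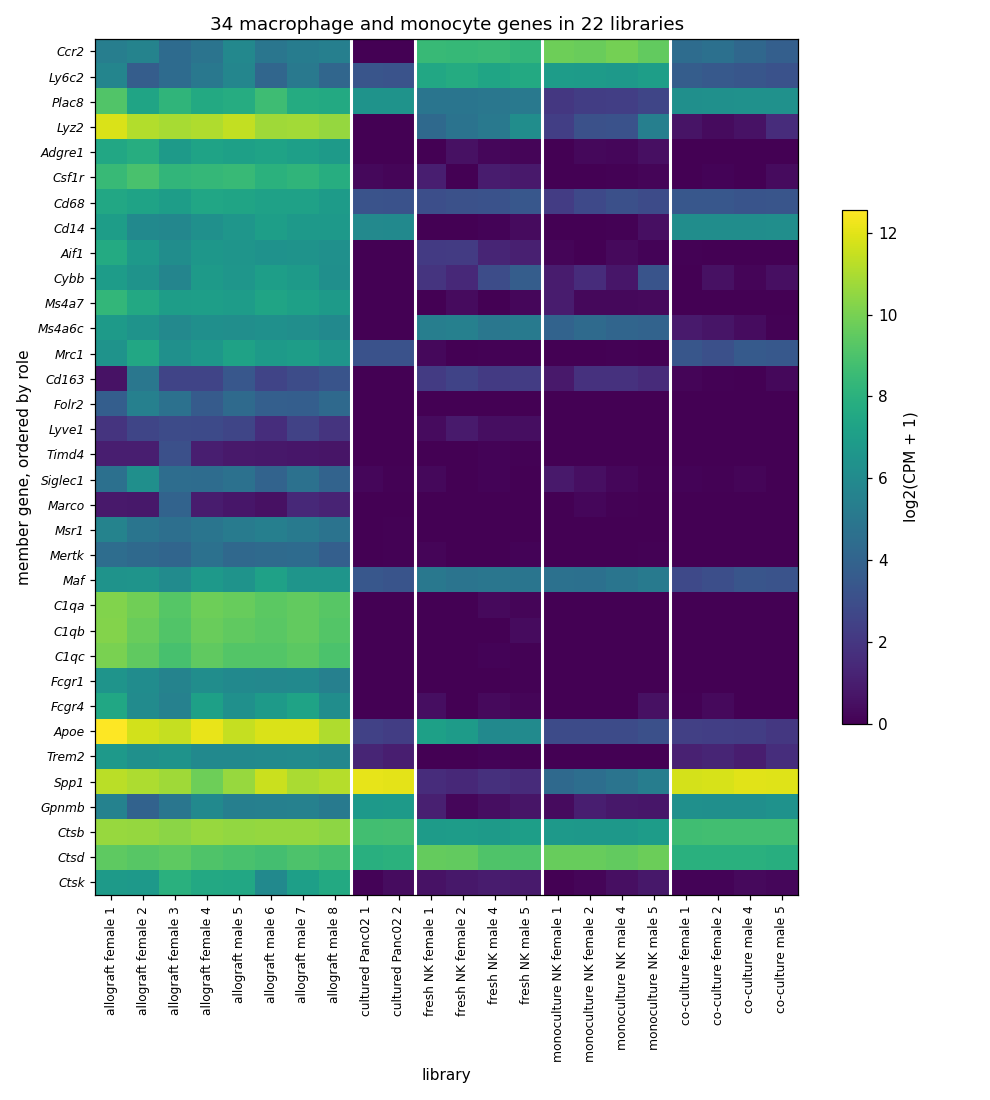
Level of each of the 34 genes (rows, ordered by role) in each of the 22 libraries (columns), coloured by log2(CPM + 1). The 8 allograft columns are filled for nearly every gene, whereas 17 genes had 0 counts in both cultured Panc02 libraries and the C1q rows are at 0 or trace level outside the allografts.

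Growth in a host was compared with growth in culture. By edgeR's quasi-likelihood test with Benjamini-Hochberg adjustment over 23264 genes, 32 of the 34 were higher in allografts and 2, Spp1 and Gpnmb, were lower, where 38.8% of all genes tested were called higher and 23.3% lower. Of these genes, 17 had 0 counts in both cultured libraries and could enter the test only through the allografts, so their direction was fixed and the count is a description. The median log2 difference was 10.12 over the 34 genes and 0.42 over all genes tested. The cultured libraries were counted in the same table as the NK libraries and the allografts in a table of their own, with 100 ng and 500 ng of RNA as input, so these differences and growth in a host cannot be told apart.

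Of the monocyte genes, Ccr2 and Ly6c2 were present at modest levels and Plac8 at higher ones. Ccr2, the receptor that draws monocytes to Ccl2 and Ccl7, was at 39.7, 47.9, 20.2 and 27.5 CPM in allografts 1 to 4 and at 57.1, 29.0, 37.0 and 41.9 CPM in allografts 5 to 8, with 0 counts in cultured Panc02. Against a floor of 3 counts over both cultures it was at least 1113-fold higher in allografts. Allograft 3 was the lowest and allograft 5 the highest, and the host sexes overlapped. Ly6c2, a surface protein abundant on inflammatory monocytes, was at 51.6, 11.96, 19.7 and 32.1 CPM in female hosts and at 53.9, 16.5, 33.1 and 16.6 CPM in male hosts. Cultured Panc02 already had 8.99 and 8.24 CPM, below each allograft but near allograft 2. Its rise in allografts was 1.84 ± 0.66 (log2, SE; edgeR adjusted p = 0.0353), and that call was lost when no filter on low counts was used (adjusted p = 0.111), without allograft 4 (0.0544) and without either cultured library (0.158 and 0.176). Ly6c2 shares 14.4% of its 50-base stretches mainly with its neighbour Ly6c1, which was at 82.8 and 79.2 CPM in cultured Panc02 and at 42.5 to 209 CPM in allografts. Multi-mapping reads were kept, so reads that match both genes may be counted for both. The Ly6c2 value in Panc02 is therefore uncertain and may be too high. Plac8, a small protein of blood cells that tumour cells also make, was at 563, 159, 296 and 198 CPM in allografts 1 to 4 and at 214, 408, 207 and 196 CPM in allografts 5 to 8. Cultured Panc02 had 87.5 and 85.7 CPM. Allografts 1 and 6 stood above the rest, and the rise of 1.75 ± 0.51 (log2, SE; edgeR adjusted p = 0.0138) lost its call without a filter (0.0573) and without either cultured library (0.0942 and 0.0953).

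Of the 9 genes carried by macrophages in general, Panc02 itself made Cd68 and Cd14, and the other 7 had 0 counts in culture or, for Csf1r, at most 0.213 CPM. Lyz2 (chromosome 10, 117113236 to 117118226, GRCm39), lysozyme of macrophages and neutrophils, was at 3621, 2213, 1952 and 2143 CPM in female hosts and at 2679, 1735, 1771 and 1496 CPM in male hosts. It had 0 counts in both cultured libraries and was at least 65280-fold higher in allografts. Allograft 1 lay well above the other female hosts. Its copy Lyz1, the lysozyme of Paneth cells, shares 15.4% of the 50-base stretches of Lyz2 and was at 26.8 to 57.9 CPM in allografts. The 10 neutrophil genes listed summed to 38.6 to 262 CPM in allografts and were highest in allograft 3 for 7 of the 10, where Lyz2 was not high. Their part in Lyz2 was not tested.

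Adgre1, the F4/80 antigen of mature macrophages, was at 180.4, 225, 114 and 154 CPM in allografts 1 to 4 and at 138, 153, 135 and 112.7 CPM in allografts 5 to 8, again with 0 counts in Panc02 (at least 4494-fold higher). Csf1r, the receptor for the macrophage growth factors, was at 348, 485, 303 and 332 CPM in female hosts and at 355, 255, 292 and 227 CPM in male hosts. Panc02 had 0.213 and 0.142 CPM of it, and the rise was 10.85 ± 0.39 (log2, SE; edgeR adjusted p = 2.3e-08). Both genes were highest in allograft 2 and lowest in allograft 8. Cd68, a lysosomal membrane glycoprotein, varied little: 181, 156, 126 and 172 CPM in allografts 1 to 4 and 157, 143, 146 and 118 CPM in allografts 5 to 8. The line itself made 8.35 and 7.86 CPM, and Cd68 rose by 4.27 ± 0.21 (log2, SE; edgeR adjusted p = 8.54e-08). Cd14, the co-receptor for bacterial lipopolysaccharide, behaved otherwise. It was at 58.5 and 61.6 CPM in cultured Panc02 and at 128, 61.5, 56.1 and 77.4 CPM in female hosts and 96.6, 132, 105 and 107 CPM in male hosts, so that allograft 2 lay between the 2 cultures and allograft 3 below both. Its rise of 0.72 ± 0.28 (log2, SE; edgeR adjusted p = 0.0469) stood at the threshold and was lost with median-ratio scaling (0.0526), without a filter (0.134), without any of allografts 4 to 8 (0.0603 to 0.0841), without either cultured library (0.161 and 0.21) and without the 3 muscle-rich allografts (0.0518).

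The other 4 general genes had 0 counts in Panc02. Aif1, an actin-binding protein of macrophages, ranged from 69.2 to 207 CPM in allografts, Cybb, the catalytic subunit of the phagocyte oxidase, from 51.6 to 128 CPM, and the tetraspan proteins Ms4a7 and Ms4a6c from 114 to 314 CPM and from 58.1 to 112.8 CPM. The lower bounds on their folds were 3042, 2906, 4819 and 2272. Allograft 1 was highest for Aif1, Ms4a7 and Ms4a6c. Ms4a6c shares 10.5% of its 50-base stretches with other genes, mainly Ms4a6b, which was itself at 39.1 to 53.8 CPM in allografts.

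Of the receptors of resident and scavenging macrophages, Marco, Timd4, Cd163 and Siglec1 had the highest coefficients of variation of the 34 genes across the 8 tumours. Mrc1, the mannose receptor, was at 87.6, 185, 76.8 and 98.2 CPM in allografts 1 to 4 and at 148, 115, 127 and 92.8 CPM in allografts 5 to 8. Panc02 made 8.05 and 8.10 CPM of it in culture, and Mrc1 rose by 3.91 ± 0.38 (log2, SE; edgeR adjusted p = 1.12e-05). Maf, a transcription factor of macrophages that other cells also use, was at 87.6, 88.6, 64.8 and 104 CPM in female hosts and at 86.4, 144, 92.6 and 93.8 CPM in male hosts, against 9.65 and 8.69 CPM in culture. Its rise was 3.44 ± 0.27 (log2, SE; edgeR adjusted p = 2.21e-06), and no allograft overlapped with culture for either gene.

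The scavenger receptor Msr1 ranged from 23.3 to 48.5 CPM and the receptor kinase Mertk, which takes part in the uptake of dying cells, from 13.0 to 24.9 CPM. Each had 2 counts in all over both cultures, which puts the ratio of allografts to culture at 1495 for Msr1 (95% counting interval 413.9 to 12350) and at 838 for Mertk (232.1 to 6922). The intervals cover counting error only. The folate receptor Folr2, carried by resident macrophages, ranged from 11.3 to 43.9 CPM and was at least 581-fold higher than in culture. Lyve1, a hyaluronan receptor shared with lymphatic endothelium, ranged from 2.09 to 6.24 CPM and was at least 129-fold higher.

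The remaining receptors stood out in 1 tumour each. Cd163, the haemoglobin scavenger receptor, was at 30.7 CPM in allograft 2, 0.55 CPM in allograft 1 and 4.90 to 9.71 CPM in the other 6. Siglec1, the sialic acid receptor of sinus macrophages, was at 74.3 CPM in allograft 2 and at 14.9 to 24.9 CPM elsewhere, and Folr2 was also highest there. Allograft 2 was the highest of the 8 for all 6 adipocyte markers (235 CPM summed, against 0.523 to 187 CPM elsewhere), had 21704 CPM of muscle markers and had the lowest epithelial and Panc02 sum. Allograft 4 had more muscle (37498 CPM) and 187 CPM of adipocyte markers, with Cd163 at 4.90 CPM and Siglec1 at 21.0 CPM. The part of these tissues in the values was not tested.

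Marco, a receptor for bacteria on macrophages of lymphoid organs, and Timd4, which binds phosphatidylserine on dying cells, were highest in allograft 3. Marco was at 15 CPM there and at 0.499 to 1.68 CPM in the other 7, and Timd4 was at 7.23 CPM there and at 0.665 to 1.11 CPM in the other 7. In allograft 3 all 6 B-cell markers were also the highest of the 8 (282 CPM summed, against 9.28 to 19.8 CPM elsewhere). Their part in Marco and Timd4 was not tested. Both genes had 0 counts in cultured Panc02. Marco's call against culture was lost without a filter (edgeR adjusted p = 0.0562) and without either cultured library (0.079 and 0.0742). Over the 8 tumours the coefficient of variation was 183% for Marco, 134% for Timd4 and 104% for Cd163, against a median of 30.9% over the 34 genes.

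**Figure D2:**
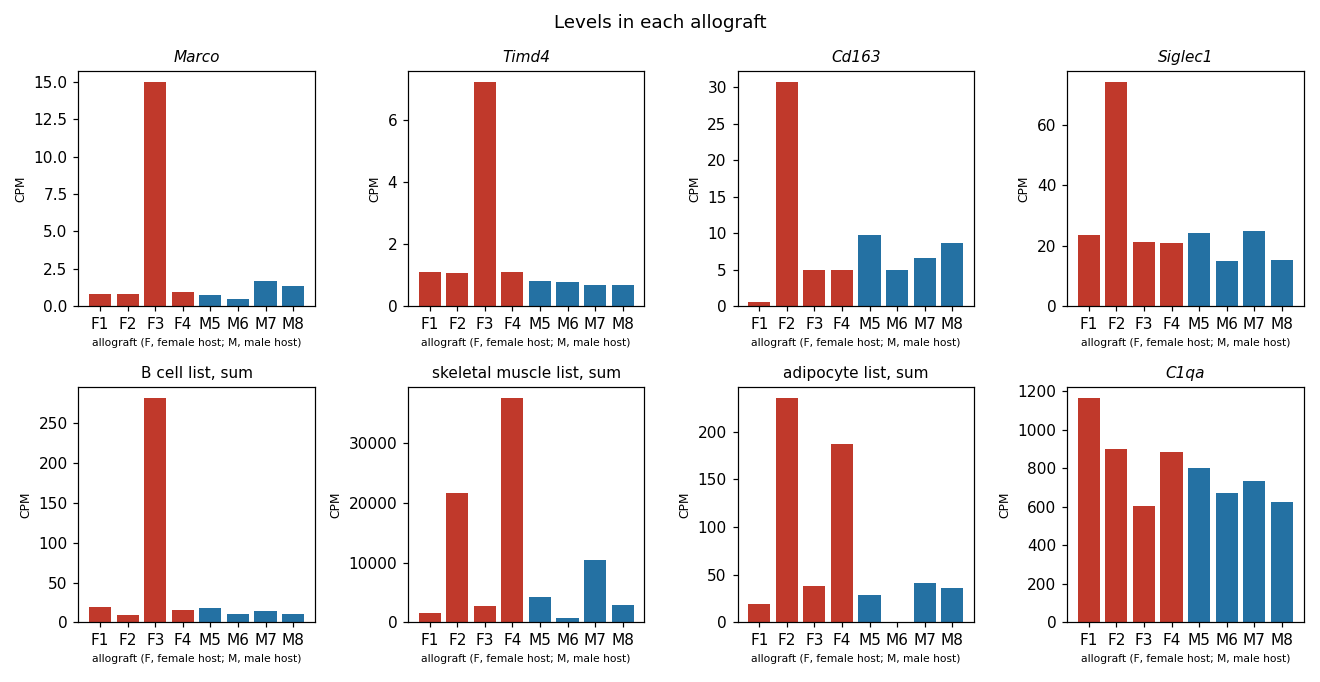
Levels in CPM in each allograft (F1 to F4, female hosts, red; M5 to M8, male hosts, blue) of Marco, Timd4, Cd163, Siglec1 and C1qa and of the summed B-cell, skeletal muscle and adipocyte markers. Marco, Timd4 and the B-cell sum peak in allograft 3, Cd163, Siglec1 and the adipocyte sum in allograft 2, and C1qa in allograft 1.

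C1q starts the classical complement pathway and is built from chains A, B and C. Their genes lie side by side on the minus strand of chromosome 4 (C1qb 136607440 to 136613498, C1qc 136617115 to 136620376, C1qa 136623228 to 136626114, GRCm39). C1qa was at 1165, 899.8, 605 and 884 CPM in allografts 1 to 4 and at 804, 673, 735 and 624 CPM in allografts 5 to 8. None of the 3 chains had a count in cultured Panc02, and the lower bounds on their folds were 23680 (C1qa), 22640 (C1qb) and 19580 (C1qc). C1qb ranged from 563 to 1188 CPM and C1qc from 471 to 1029 CPM. The chains kept nearly fixed proportions: counts of C1qb were 0.891 to 1.02 of those of C1qa in each tumour, and counts of C1qc 0.735 to 0.916. Allograft 1 was the highest and allograft 3 the lowest for all 3.

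The C1q chains rose together and the cathepsins rose by unlike amounts, so the stretches just before their starts are shown, 250 bases from the RefSeq table of the older build GRCm38.p6, written 5′ to 3′ on the gene's strand. Capitals mark a match to a searched motif. A promoter entry was found for 25 of the 34 genes (32 sequences).
C1qb chr4:136886201-136886450, minus strand: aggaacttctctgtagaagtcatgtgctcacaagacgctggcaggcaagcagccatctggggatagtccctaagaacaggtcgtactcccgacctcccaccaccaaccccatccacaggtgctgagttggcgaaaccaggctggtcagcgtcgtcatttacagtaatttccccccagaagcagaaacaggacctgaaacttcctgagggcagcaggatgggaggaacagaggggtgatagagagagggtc
C1qc chr4:136892915-136893164, minus strand: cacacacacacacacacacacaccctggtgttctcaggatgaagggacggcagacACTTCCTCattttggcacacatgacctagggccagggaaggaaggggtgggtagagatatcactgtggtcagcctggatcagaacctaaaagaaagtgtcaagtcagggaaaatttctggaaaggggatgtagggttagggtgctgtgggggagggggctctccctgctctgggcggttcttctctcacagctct
Ctsd chr7:142387828-142388077, minus strand: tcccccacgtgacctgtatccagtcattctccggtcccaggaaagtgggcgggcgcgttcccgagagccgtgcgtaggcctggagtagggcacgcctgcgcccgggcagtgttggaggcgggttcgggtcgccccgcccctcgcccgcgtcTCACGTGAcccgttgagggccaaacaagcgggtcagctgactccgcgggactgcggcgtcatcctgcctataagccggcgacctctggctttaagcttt
Ctsk chr3:95498960-95499209, plus strand: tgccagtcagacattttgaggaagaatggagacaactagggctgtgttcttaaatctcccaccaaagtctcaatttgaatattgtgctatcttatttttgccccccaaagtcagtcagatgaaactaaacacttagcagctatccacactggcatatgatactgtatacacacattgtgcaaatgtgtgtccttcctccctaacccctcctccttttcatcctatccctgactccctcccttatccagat

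The letters GAGGAAGT (reverse complement ACTTCCTC), a form of the site of the myeloid factor PU.1, were found in 5 of the 32 sequences, those of C1qc, Fcgr4, Ly6c2 and Spp1, and in 2.44% of 32851 promoters of the same length. The Ly6c2 sequences overlap and share a site, which therefore counts more than once among the 5. The CLEAR motif TCACGTGA, bound by regulators of lysosome genes, was found before Ctsd and in 0.79% of promoters. The motif TCATGTGA (reverse complement TCACATGA), bound by MITF, was found before none of the members and in 0.85% of promoters. Both strands were searched, no stretch held more than 1 kind of motif, and a match is a description only.

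Both Fc receptors, which bind antibody-coated particles, had 0 counts in Panc02. The high-affinity receptor Fcgr1 ranged from 44.0 to 88.1 CPM and was at least 1846-fold higher in allografts. Fcgr4 ranged from 44.8 CPM in allograft 3 to 174 CPM in allograft 1 and was at least 3110-fold higher.

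The lipid-associated genes divided into 2 that rose and 2 that fell. Apoe (chromosome 7, 19430034 to 19433113, GRCm39), the apolipoprotein that macrophages secrete to carry cholesterol, was at 6009, 3364, 2833 and 4443 CPM in female hosts and at 2837, 3689.8, 3628 and 2146 CPM in male hosts, the highest median of the 34 genes per length. Panc02 made only 4.31 and 3.82 CPM of it in culture, and the rise was 9.85 ± 0.50 (log2, SE; edgeR adjusted p = 1.16e-07). Trem2, a receptor for lipids and dying cells, was at 106, 76.7, 85.2 and 61.0 CPM in allografts 1 to 4 and at 61.7, 62.6, 66.6 and 55.8 CPM in allografts 5 to 8. It stood just above the limit set for a gene made by Panc02, at 1.43 and 1.07 CPM in culture, and rose by 5.89 ± 0.26 (log2, SE; edgeR adjusted p = 5.59e-08). Both were highest in allograft 1 and lowest in allograft 8.

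Spp1 (chromosome 5, 104582984 to 104588916, GRCm39), osteopontin, a secreted phosphoprotein, was per length the most abundant of the 34 genes in Panc02 itself, at 4345 and 4233 CPM. In allografts it was at 2414, 2069, 1745 and 888 CPM in female hosts and at 1593, 3041, 2016 and 2246 CPM in male hosts. Every tumour lay below both cultures, at 20.7% to 70.9% of the cultured level, and the fall was 1.05 on the log2 scale (SE 0.29; edgeR adjusted p = 0.00969). Gpnmb, a membrane glycoprotein of macrophages and melanocytes, was at 108 and 112 CPM in culture and at 45.6, 14.6, 29.8 and 61.3 CPM in female hosts and 41.9, 43.2, 45.5 and 33.8 CPM in male hosts, a fall of 1.41 on the log2 scale (SE 0.37; edgeR adjusted p = 0.00887). Neither call held with only 1 cultured library (adjusted p 0.0581 to 0.0634 for Spp1 and 0.0536 to 0.0633 for Gpnmb), although the direction did. The epithelial and Panc02 markers fell to 22.1% to 54.7% of culture over the same tumours; their part in Spp1 and Gpnmb was not tested. Spp1 overlaps Gm42793 over 18.8% of its exon bases on the same strand, and reads there were not assigned to either.

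Of the cathepsins, the proteases of the lysosome, Ctsb and Ctsd were made by Panc02 and were higher in its tumours, whereas Ctsk was nearly absent from culture. Ctsb was the steadiest of the 34 genes, at 1543, 1511, 1344 and 1572 CPM in allografts 1 to 4 and at 1469.7, 1519, 1494 and 1367 CPM in allografts 5 to 8, a coefficient of variation of 5.5%. In culture it was at 431 and 439 CPM, and it rose by 1.83 ± 0.13 (log2, SE; edgeR adjusted p = 1.17e-06). Ctsd was at 686, 626, 689.9 and 539 CPM in female hosts and at 497, 451, 529 and 463 CPM in male hosts, against 241 and 254 CPM in culture, and rose by 1.23 ± 0.13 (log2, SE; edgeR adjusted p = 1.35e-05). Of the exon bases of Ctsd, 34.4% are shared on the same strand with Gm49369, which had 0 counts in every library, so its level is an underestimate. Ctsk, a collagen-degrading cathepsin known best from osteoclasts, was at 112, 105, 249 and 187 CPM in allografts 1 to 4 and at 185, 60.5, 135 and 199 CPM in allografts 5 to 8. It was at 0.085 and 0.356 CPM in culture, below the limit, and rose by 9.52 ± 0.91 (log2, SE; edgeR adjusted p = 2.29e-05). Allograft 3, the highest for Ctsk, was also the highest for all 6 osteoclast markers (384 CPM summed, 105 to 281 CPM elsewhere). Acp5 and Mmp9 made up most of that sum (193 and 169 CPM), and Calcr was near the floor, at most 0.153 CPM in any tumour. Allograft 8, the next highest for Ctsk, had an osteoclast sum of 126 CPM, and allografts 4 and 5 had 230 and 281 CPM. The part of these markers in Ctsk was not tested.

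Panc02 thus made 12 of the 34 genes at 1 CPM or more in both cultured libraries. From high to low these were Spp1, Ctsb, Ctsd, Gpnmb, Plac8, Cd14, Maf, Ly6c2, Cd68, Mrc1, Apoe and Trem2. Ly6c2 is the uncertain entry, because reads that match Ly6c1 as well may be counted for both genes. The other 22 reached at most 0.356 CPM in either library, and the nearest below the limit were Ctsk and Csf1r. A limit of 0.5 CPM gave the same number, and one of 5 CPM gave 10. For 31 of the 34 genes the lowest allograft lay above the higher cultured library, the exceptions being Spp1, Gpnmb and Cd14. The 17 genes with 0 counts in both cultures could not lie below them. The same share over all genes was not counted, so the 31 are a description.

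**Figure D3:**
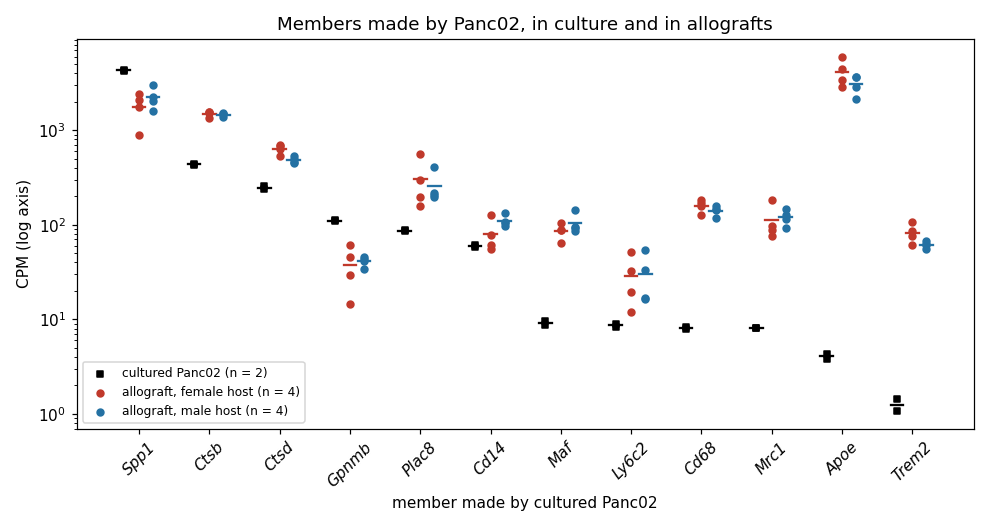
CPM on a log axis of the 12 genes made by cultured Panc02, for each library of cultured Panc02 (black squares, n = 2) and of allografts in female (red, n = 4) and male hosts (blue, n = 4), with short lines at the means. Spp1 and Gpnmb lie lower in every allograft, Cd14 overlaps, and Apoe shows the widest gap.

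Genes that act with these markers moved largely the same way between culture and allografts. The lists were set by pathway, and their counts are read beside the 38.8% of all genes called higher and 23.3% called lower. Markers of several other host cells rose over the same step, 8 of 8 for dendritic cells (median log2 difference 7.44), T cells (11.81), endothelium (11.31) and fibroblasts (11.03) and 6 of 6 for mast cells (13.15). Other lists were mixed. Of 6 B-cell genes 2 rose, of 8 neutrophil genes tested 6 rose and 1 fell, and of 7 NK genes 6 rose and 1 fell. Of 4 erythroid genes tested 1 rose and 1 fell. Many of the pathway genes are also made by other host cells, and the part of these cells was not tested. Of 10 growth and recruitment signals 6 rose and 1 fell. The chemokines Ccl12, Ccl2 and Ccl7, ligands of Ccr2, had 0 counts in culture and medians of 27.2, 18.8 and 35.8 CPM in allografts. Csf1, which Panc02 makes (60.6 and 64.7 CPM), rose by 1.03 ± 0.12 (log2, SE; edgeR adjusted p = 3.39e-05). Mif, which holds macrophages in place, was the member that fell, by 0.57 on the log2 scale (SE 0.19; edgeR adjusted p = 0.0221). Of 10 myeloid transcription factors 7 rose, with medians of 67.8 CPM for Irf8, 89.97 CPM for Spi1 (which encodes PU.1, 0 counts in culture) and 13.7 CPM for Nr1h3, and Klf4 fell by 0.67 on the log2 scale (SE 0.20; edgeR adjusted p = 0.0145).

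All 10 genes of Tyrobp and Fc receptor signalling rose, among them the adaptors Tyrobp and Fcer1g (medians 236 and 205 CPM) and the signalling proteins Syk and Vav1 (69.8 and 55.0 CPM). So did all 5 subunits of the phagocyte oxidase listed, which partner Cybb: Ncf1 and Ncf4 had 0 counts in culture and medians of 87.6 and 38.1 CPM, and Rac2 reached 90.6 CPM. The 11 complement partners and receptors all rose, with medians of 39.2 CPM for the receptor C5ar1, 90.6 CPM for C3ar1, 113.5 CPM for properdin (Cfp) and 156 CPM for C4b. All 12 lysosome genes rose. Ctss, the cathepsin of antigen-presenting cells, went from 0 counts to a median of 752 CPM, whereas Lgmn, Hexa and Npc2 started at 25.1 to 195 CPM in Panc02 and reached 561, 215 and 949.7 CPM. Of 10 lipid-handling genes 7 rose, including the cholesterol exporters Abca1 and Abcg1 (75.7 and 42.9 CPM), Fabp5 (77.1 CPM) and Lpl (20.6 CPM). Cd9 and Nceh1 fell, by 0.59 and 0.66 on the log2 scale (edgeR adjusted p = 0.00272 and 0.00156). All 15 activation genes rose. Il1b had a median of 46.2 CPM, Ccl22 of 17.2 CPM, Il6 of 1.59 CPM and Il12b of 1.54 CPM, each from 0 counts in culture.

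Host sex did not separate the macrophage genes at the threshold. In the 8 allografts 0 of the 34 genes were called by edgeR, where 0% of all 20560 genes tested were called higher and 0.0146% (3 genes) lower in female hosts. At an unadjusted edgeR p below 0.05 there were 4 of the 34 and 3087 of all genes, and DESeq2 called 1 of the 34 and 678 of all genes. The log2 difference was positive, that is higher in female hosts, for 25 of the 34, with a median of 0.35 against 0.04 over all genes tested. The share of positive differences over all genes was not counted. Allograft 1 was the highest tumour for 14 of the 34, so the 25 are not separate observations. The log2 difference was also positive for 8 of 8 endothelial (median 0.4), 6 of 8 fibroblast (0.5), 8 of 8 skeletal muscle (1.86) and 6 of 6 adipocyte genes (2.25). It was positive for 0 of 6 epithelial and Panc02 genes (-0.5). Among immune cells it was positive for 6 of 8 T-cell (0.4), 6 of 8 dendritic-cell (0.14) and 6 of 6 B-cell genes (3.58). It was also positive for 5 of 7 NK (0.18) and 5 of 6 mast-cell genes (0.28), but for only 1 of 6 neutrophil genes tested (-0.53). None of these genes was called by edgeR. Their part in the lean of the macrophage genes was not tested. The 4 host values of each sex did not overlap for 2 of the 34 genes (5.88%), Ctsd and Timd4, where 9.67% of all genes tested did not overlap.

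Ctsd had the smallest p of the 34. Its levels, given above, were 539 to 689.9 CPM in female and 451 to 529 CPM in male hosts, so the nearest tumours of each sex, allografts 4 and 7, were close. The difference was 0.43 ± 0.12 (log2, SE; edgeR unadjusted p = 0.00513, adjusted p = 0.199), and DESeq2 gave 0.43 with an adjusted p of 0.016. Timd4 was at 1.10, 1.07, 7.23 and 1.11 CPM in female hosts and at 0.797, 0.76, 0.673 and 0.665 CPM in male hosts, which rests on 38 to 189 and 26 to 32 counts. The difference was 1.88 ± 0.67 (log2, SE; edgeR adjusted p = 0.255), and the sexes remained apart without allograft 3 though by less. Trem2 (0.45 ± 0.16, adjusted p = 0.246) and Csf1r (0.42 ± 0.18, adjusted p = 0.316) were the other genes with an unadjusted edgeR p below 0.05, and both overlapped between the sexes. C1qa (0.37 ± 0.19), Lyz2 (0.41 ± 0.25) and Apoe (0.48 ± 0.27) had edgeR adjusted p-values of 0.392, 0.447 and 0.42. Allograft 1 gave the highest value of each, so 1 tumour weighs on the female mean. Skeletal muscle markers were at 1615 to 37498 CPM in female and 726 to 10459 CPM in male hosts; their part in these differences was not tested. Of the 82 pathway genes tested, 0 were called by host sex.

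**Figure D4:**
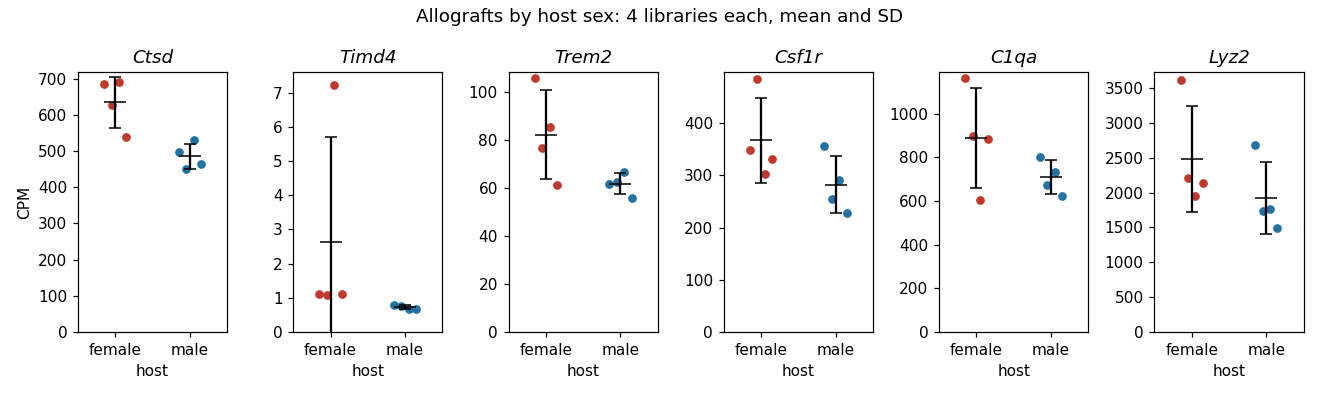
CPM in allografts of female and male hosts (n = 4 each, points) with mean and SD (black), for Ctsd, Timd4, Trem2, Csf1r, C1qa and Lyz2. The sexes do not overlap for Ctsd and Timd4, and allograft 1 is the highest point for C1qa and Lyz2. The SD bar of Timd4 in female hosts is cut off at 0, and no difference passed the edgeR threshold.

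Allografts were then set against fresh NK cells, the other source of host RNA in the series. Of the 34 genes 30 were higher and 2 lower in allografts by edgeR, where 44.8% of 24153 genes were called higher and 30.7% lower. Folr2, Msr1 and Marco had 0 counts in all 4 fresh libraries, and the C1q chains, Fcgr1 and Trem2 had 0 to 10. Such genes entered the test through the allografts, which fixed their direction, so the count is a description. The 2 lower genes were monocyte genes that NK cells themselves carry. Ccr2 was at 353, 345, 363 and 303 CPM in the 4 fresh libraries and at 20.2 to 57.1 CPM in allografts, a fall of 3.06 on the log2 scale (SE 0.21; edgeR adjusted p = 1.3e-07). Ly6c2 was at 185, 212, 163 and 198 CPM in fresh NK cells and fell by 2.55 (SE 0.40; edgeR adjusted p = 0.000221). No allograft reached any fresh library for either gene. Ctsd (log2 difference -0.07 ± 0.09, edgeR adjusted p = 0.487) and Cd163 (1.34 ± 0.77, edgeR adjusted p = 0.137) were not called. The call for Cd163 turned on allograft 1, without which edgeR called it (adjusted p = 0.0186).

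Fresh NK cells held 14 of the 34 genes at 1 CPM or more in all 4 libraries. The C1q chains were absent or at trace level: summed, they reached 0 to 0.43 CPM. Adgre1 was at 0 to 0.461 CPM and Csf1r at 0 to 1.10 CPM. Ctsd (528 to 764 CPM), Ctsb (115 to 128 CPM), Apoe (60.8 to 141 CPM), Ms4a6c (30.7 to 43.2 CPM), Plac8 (27.9 to 33.0 CPM), Maf (27.3 to 31.1 CPM) Cd68 (7.17 to 9.70 CPM) and Cd163 (3.32 to 4.68 CPM) were present beside Ccr2 and Ly6c2. Lyz2 was uneven, at 18.8 and 26.4 CPM in female and 32.3 and 70.6 CPM in male donors, and Cybb likewise, at 2.64, 1.69, 6.56 and 11.8 CPM. Male library 5, the highest for both, was also the highest of the 4 for all 10 neutrophil markers (475 CPM summed, against 22.3 to 174 CPM). Their part in Lyz2 and Cybb was not tested.

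Between the sexes in fresh NK cells 2 of the 22 genes tested were called higher in females and 0 lower, where 4.03% of 19623 genes were higher and 4.57% lower. Apoe was at 141 and 118 CPM in female and at 60.8 and 63.0 CPM in male libraries, a log2 difference of 1.05 ± 0.11 (SE; edgeR adjusted p = 0.000169). Ctsd was at 764 and 749.99 CPM in female and at 553 and 528 CPM in male libraries, a log2 difference of 0.47 ± 0.08 (SE; edgeR adjusted p = 0.00278). With 2 libraries per sex both were higher in each female library. Cybb was called lower in females (edgeR adjusted p = 0.00278 and 0.00349) when a male monoculture library, 4 or 5, was left out of the fit.

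After 24 h of culture with interleukin-2, 3 of the 22 genes tested rose and 8 fell by edgeR, where 23.1% of 19623 genes rose and 22% fell. Among the 8, Lyve1 had 0 counts in every monoculture and could only be called lower. Aif1 and Csf1r had 0 to 11 and 0 to 6 counts there. All 3 entered the test through the fresh libraries, so the count of genes that fell is a description. Ccr2 rose from 303 to 363 CPM to 880, 815, 979.5 and 749 CPM, by 1.43 ± 0.08 (log2, SE; edgeR adjusted p = 9.82e-09). Ctsd rose by 0.40 ± 0.06 (SE; edgeR adjusted p = 2.58e-05), from 528 to 764 CPM to 733 to 838 CPM, and its male libraries reached the female level. Spp1 rose by 3.78 ± 0.17 (SE; edgeR adjusted p = 2.16e-11), from 1.69 to 2.39 CPM to 18.7, 21.8, 27.2 and 39.2 CPM. The last 4 values are 0.437% to 0.914% of the level in cultured Panc02. The 6 epithelial and Panc02 markers stood at 0.476% to 0.936% of that level in the same monocultures and at 0.107% to 0.189% in fresh cells, and their part in Spp1 was not tested.

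Apoe fell in culture, to 6.22, 6.198, 6.30 and 7.47 CPM, by 3.68 on the log2 scale (SE 0.09; edgeR adjusted p = 3.46e-14), with all 4 libraries close together. Plac8 fell by 2.79 (SE 0.13; edgeR adjusted p = 5.49e-11) to 3.08 to 5.20 CPM, Ms4a6c by 1.07 (SE 0.10; 2.57e-07) to 15.04 to 19.0 CPM and Ly6c2 by 0.56 (SE 0.07; 1.2e-05) to 111 to 130 CPM. Aif1 went from 1.13 to 3.61 CPM to 0 to 0.238 CPM, Csf1r from 0 to 1.10 CPM to 0 to 0.141 CPM and Lyve1 from 0.281 to 0.844 CPM to 0 counts in all 4 libraries. The call for Csf1r was lost without fresh female library 1. Cd163 fell by 0.84 (SE 0.30; edgeR adjusted p = 0.034), a call lost when any of 5 of the 8 libraries was left out (adjusted p 0.0538 to 0.103). B-cell, dendritic-cell and erythroid markers fell over the same step, 6 of 6 tested in each list, and the 8 dendritic-cell markers summed to 76.9 to 92.6 CPM in fresh cells and 12.4 to 16.1 CPM in monoculture. Fresh RNA was taken on oligo(dT) beads after a positive sort and cultured RNA with a phenol reagent, so culture and extraction cannot be told apart. Lyz2 was at 4.10, 7.61, 7.95 and 41.4 CPM in monoculture, the last in male library 5, again the highest for all 10 neutrophil markers (440 CPM summed, against 25.6 to 82.0 CPM). It was not called (-1.36 ± 0.69, edgeR adjusted p = 0.199), but was without that library (-2.17, adjusted p = 0.0457), as was Cybb (-2.0, adjusted p = 9.6e-05).

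**Figure D5:**
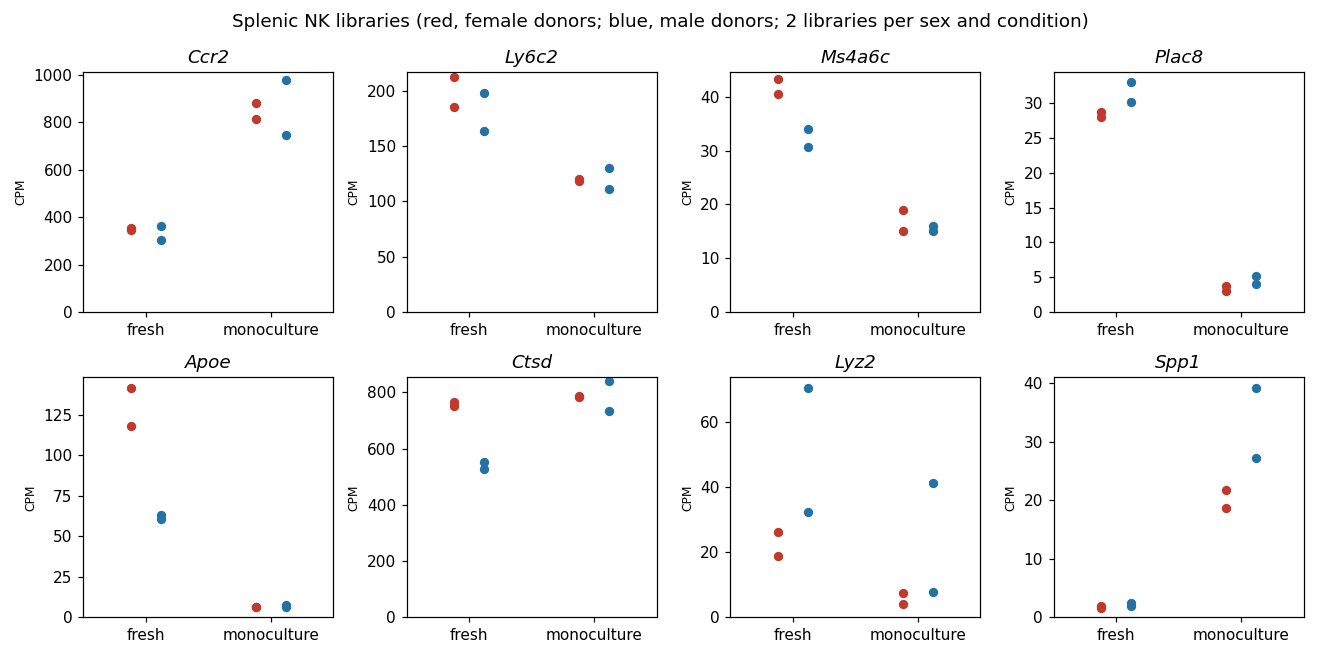
CPM of 8 genes in fresh and monocultured splenic NK cells, 2 libraries per donor sex (red, female; blue, male). Ccr2 and Spp1 lie higher in monoculture, Apoe, Plac8, Ms4a6c and Ly6c2 lower, and male library 5 stands above the rest for Lyz2 in both conditions.

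Co-cultures of NK cells with Panc02, which the labels do not describe as separated, were compared with Panc02 alone. Of 17 genes tested 5 were higher and 2 lower by edgeR, where 12.2% of 18172 genes were higher and 6.12% lower. Of the 5 higher genes, Ccr2, Lyz2, Cybb and Ms4a6c had 0 counts in both cultured libraries, entered the test through the co-cultures and could only be called higher, so this count too is a description. This comparison and that of allografts share the 2 cultured libraries. Ccr2 was at 20.7, 24.1, 17.3 and 12.8 CPM, which is 1.496% to 2.81% of the mean in NK monoculture, and the 7 NK markers were at 2.00% to 3.75% of theirs. Lyz2 (0.299 to 2.04 CPM), Cybb (0 to 0.47 CPM) and Ms4a6c (0.0657 to 0.869 CPM) were also higher than the 0 counts in Panc02, all of them genes found in the NK libraries. Cybb was not called by DESeq2 (adjusted p = 0.25) nor by edgeR without either cultured library, co-culture female 2 or co-culture male 5 (0.124 to 1).

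Of the genes made by Panc02, Cd14 rose in co-culture from 58.5 and 61.6 CPM to 70.4, 71.4, 71.3 and 72.3 CPM, by 0.30 ± 0.05 (log2, SE; edgeR adjusted p = 0.000151). Gpnmb fell from 108 and 112 CPM to 78.5, 76.4, 74.9 and 83.7 CPM, by 0.44 on the log2 scale (SE 0.05; edgeR adjusted p = 8.63e-07). Spp1 fell from 4345 and 4233 CPM to 3397, 3544, 4009 and 3991 CPM, by 0.15 (SE 0.03; edgeR adjusted p = 0.000645), a call lost without cultured library 1 (0.0565). Each co-culture lay outside the range of the 2 cultures for these 3 genes. Plac8, Maf, Ly6c2, Cd68, Mrc1, Apoe, Trem2, Ctsb and Ctsd were not called, with log2 differences from -0.24 to 0.29. The C1q chains had 0 counts in all 4 co-cultures.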

How the data were processed

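Whole-number read counts per gene were deposited by the authors for 22 libraries in 2 tables. Per the file headers, counting used exons of the Ensembl release 113 annotation on the reverse strand, took each mate singly and kept multi-mapping reads, so genes with near-identical copies are uncertain. Between 66.4% and 78.6% of genes with 1 to 20 counts had an even count, and intervals and bounds that treat reads as independent are too narrow. The build GRCm39 was used with featureCounts 2.0.6, SAMtools 1.19.2, HISAT2 2.2.1 and cutadapt 4.4, per the submitters' processing notes. Per the labels' protocols, polyadenylated RNA with integrity numbers between 8.5 and 10 was made into strand-specific libraries.

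Of 78298 gene identifiers, 51498 were matched to a symbol. The labels gave 9 groups. Differences were tested with edgeR 4.0.16 in R 4.3.3 (quasi-likelihood, robust, TMM scaling, filterByExpr, Benjamini-Hochberg at 0.05 over all genes tested), and "rose", "fell" and "called" refer to that threshold. Standard errors were derived from the log2 fold change and its F statistic. Host sex was fitted on the 8 allografts, allografts and co-cultures against cultured Panc02 on those libraries, and NK comparisons on fresh and monocultured cells. Biological coefficients of variation were 0.372 (allografts with cultured Panc02), 0.363 (allografts), 0.369 (allografts with fresh NK), 0.156 (NK) and 0.06 (co-cultures with Panc02). The fit was tested on simulated data. A gene with 0 counts in a group is given as a lower bound against 3 counts over that group. A gene counts as made by Panc02 at 1 CPM or more in both cultured libraries. RPKM uses the gene lengths of the deposited tables. Sequence shared between genes was searched with 50-base stretches of the older annotation at hand (build GRCm38), which gave no coordinates for the counts.

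The members, the lists and the tests were chosen with earlier results of these data known. Levels in every library are given for the members made by Panc02 and for Lyz2, C1qa, Csf1r, Adgre1, Ccr2 and Ctsk; Timd4 and other receptors were added after their values were seen. Pathway lists are given by their counts, with up to 4 members of smallest adjusted p and any member going against the majority; 2 pathway genes that the rule would name are not reported here. Alternatives were median-ratio scaling, no filter, DESeq2 1.42.0, leaving out each library, a replicate block and, chosen after seeing the data, leaving out 3 allografts with over 10000 CPM of skeletal muscle genes.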

Additional observations from a re-analysis of the deposited data

Results flagged for a closer look

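In 7 of 68 groups of 4 allografts of a host sex (10.3%; chance gives about 1 in 20), the highest tumour stood apart from the other 3 by Dixon's ratio. Over all 20560 genes tested for host sex, 6.35% of such groups had a tumour that stood apart, in 4.61% the highest. With 7 groups nothing is read from the higher share. In female hosts these were Lyz2 in allograft 1 (3621 CPM), Cd163 and Siglec1 in allograft 2 (30.7 and 74.3 CPM) and Timd4 and Marco in allograft 3 (7.23 and 15 CPM). In male hosts they were Plac8 and Maf in allograft 6 (408 and 144 CPM), the tumour with the lowest skeletal muscle sum (726 CPM).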

How the results depend on the processing

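No log2 difference of a member that was called reversed its direction under any alternative run. Differences that were not called did change sign: for 9 members in host sex, among them Cd163 (0.47, but -1.08 without allograft 2 and -1.52 without the 3 muscle-rich allografts) and Marco (2.06, but -0.29 without allograft 3), for 11 in sex of fresh NK cells, 4 in monoculture and 3 in co-culture. Against cultured Panc02, members called lower ranged from 0 to 2 when single libraries were left out; they were 0 without either cultured library, which leaves 1 library to carry that group, assumed to vary like the allografts. Members called higher were 28 to 32 over the same runs, 31 with DESeq2 and 31 without the 3 muscle-rich allografts. For host sex in allografts, genes called among all tested were 3, 14 without a filter, 678 with DESeq2, 0 without the muscle-rich allografts and 0 to 4 when single libraries were left out, with 0 without allograft 5, 6 or 8; DESeq2 called 1 member, Ctsd. For sex in fresh NK cells, all genes called were 537 to 1918 against 1686, and members lower 0 to 1, the 1 being Cybb. For co-cultures against cultured Panc02, all genes called were 1527 to 3530 against 3325, and members lower 1 to 2. The causes were not tested. Correlations of same-numbered fresh and monocultured libraries were 0.016 in females and 0.095 in males. They were taken after centring on the mean of the 2 libraries per donor sex and condition. The 2 deviations then mirror each other, so these correlations cannot show whether the sample numbers pair the libraries. With the replicate block, 3 members were higher, 9 lower and 8714 of all genes called, against 3, 8 and 8862, the added call being Lyz2 (-1.55, edgeR adjusted p = 0.00179). Depth limits Marco, Timd4 and Cd163 most, with as few as 21, 26 and 19 counts in a tumour.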
